A study of Homo sapiens with 6 samples.

Results

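The genes described here encode 10 enzymes that make serine, carry its one-carbon unit through the folate cycle, and make asparagine. They are PHGDH, PSAT1, PSPH, SHMT1, SHMT2, MTHFD1, MTHFD2, MTHFD1L, ALDH1L2 and ASNS. They were chosen by name, as the 10 rows whose Ensembl identifiers carry these symbols, among the 61496 features of the deposited tables, and all 10 passed the filter on low counts. The question was whether their mRNA levels differed after exposure of U251 cells to sevoflurane (Sev), a volatile anesthetic. U251 is an established human glioma cell line, here grown in DMEM with serum. The control group was 3 libraries of untreated U251 cells, and the Sev group was 3 libraries made after 2 h of the gas, with no allele or transgene named for either. The sequencing comparison was described as one of 5.1% Sev, while the deposited protocol also lists 3.4% and 1.7% and the labels assign none of them to a single library.

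Serine is made from the glycolytic intermediate 3-phosphoglycerate in 3 steps. Serine hydroxymethyltransferases then move a carbon from serine to tetrahydrofolate, and a mitochondrial and a cytosolic set of enzymes pass that carbon between folate forms, which feeds purine and thymidylate synthesis. Asparagine synthetase makes asparagine from aspartate with nitrogen from glutamine. Several of these genes, ASNS, PHGDH, PSAT1, SHMT2 and MTHFD2 among them, are textbook targets of ATF4, the transcription factor that the study measured after Sev, and PHGDH and MTHFD2 are known for high expression in many tumors.

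Total RNA was depleted of ribosomal RNA and sequenced, and the authors deposited counts per gene, which summed to between 38624292 and 46318311 per library. Markers used for astroglial and glioma cells were present, with VIM between 828 and 1027 FPKM and NES between 192 and 232 FPKM, where FPKM is the deposited level per gene length. SOX9 had 40.4 to 48.7 FPKM, CD44 31.7 to 60.9, GFAP 14.9 to 28.2 and S100B 4.26 to 13.7. PTPRC, PECAM1, EPCAM, MOG and RBFOX3, markers of leukocytes, endothelium, epithelium, oligodendrocytes and neurons, had at most 0.156 FPKM, while CD68, a lysosomal gene used as a macrophage marker, had 0.834 to 1.88 FPKM. In bulk RNA, fewer cells with a transcript and less of it per cell cannot be told apart.

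Sequence upstream of 2 of the genes is shown because ATF4 acts, with C/EBP partners, through a composite element, and ASNS and MTHFD1L are the members with a match to its core. The letters TGATGNAA were searched on both strands in windows from 250 bases before to 50 bases after annotated gene starts (RefSeq, GRCh38.p14). Windows were at hand for 7 of the 10 members, some with several starts, and not for PSPH, SHMT2 and ALDH1L2. The core was in 4 of 11 member windows, 3 of them overlapping windows of MTHFD1L that hold the same match, and in 3.62% of all 35116 windows. Capitals mark the match, which starts 68 bases before the ASNS start. For the 3 overlapping MTHFD1L windows it starts 129 and 90 bases before and 24 bases after the annotated start, the first being the one printed, and a match is a description of letters and not a bound site. The windows are chr7:97872359-97872658, minus strand, for ASNS and chr6:150866236-150866535, plus strand, for MTHFD1L.
ASNS: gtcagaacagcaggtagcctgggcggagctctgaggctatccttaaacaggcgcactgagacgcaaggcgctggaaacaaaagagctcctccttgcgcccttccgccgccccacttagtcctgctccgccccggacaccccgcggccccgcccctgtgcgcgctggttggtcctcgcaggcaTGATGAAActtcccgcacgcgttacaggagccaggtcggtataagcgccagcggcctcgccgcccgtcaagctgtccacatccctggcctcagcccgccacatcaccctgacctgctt
MTHFD1L: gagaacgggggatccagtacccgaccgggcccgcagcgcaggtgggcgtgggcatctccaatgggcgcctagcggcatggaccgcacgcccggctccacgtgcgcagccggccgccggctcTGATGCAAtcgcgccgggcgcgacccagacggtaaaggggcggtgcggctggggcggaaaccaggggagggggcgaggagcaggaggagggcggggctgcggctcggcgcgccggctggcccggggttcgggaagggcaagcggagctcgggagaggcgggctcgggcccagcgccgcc

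Sev-treated cells held more mRNA of MTHFD1L and MTHFD2, 2 mitochondrial folate enzymes, and less mRNA of PSPH and SHMT1, the last enzyme of serine synthesis and the cytosolic serine hydroxymethyltransferase. The other 6 genes, PHGDH, PSAT1, SHMT2, MTHFD1, ALDH1L2 and ASNS, did not pass the test. The called changes ran from 1.38-fold lower to 1.84-fold higher. Levels are given as CPM, counts scaled to a common library size with TMM factors, and a change is called where the Benjamini-Hochberg adjusted p-value of edgeR's quasi-likelihood test, over all 27514 tested features, is under 0.05. The 4 of 10 called stand beside 43.7% of all tested features, so the share of these genes that changed was near the background, as it was beside the 45.9% of protein-coding genes. By direction, 22.1% of all tested features were higher and 21.5% lower. The study's own threshold, a log2 fold change over 1 with an unadjusted p-value under 0.05, was passed by 0 of the 10 in edgeR, beside 23.5% of all tested features and 16.7% of protein-coding genes, and DESeq2 gave 0 as well. At an unadjusted p-value under 0.05 alone, 6 of the 10 were below the limit, beside 52% of all tested features. In TMM-scaled CPM the groups did not overlap for 6 of the 10, 4 higher and 2 lower. This stood beside 56.5% of all tested features (28.3% higher, 28.2% lower) and 57.8% of protein-coding genes, again close to the background. Of the 4 higher, PHGDH and PSAT1 overlapped in the deposited FPKM.

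**Figure D1:**
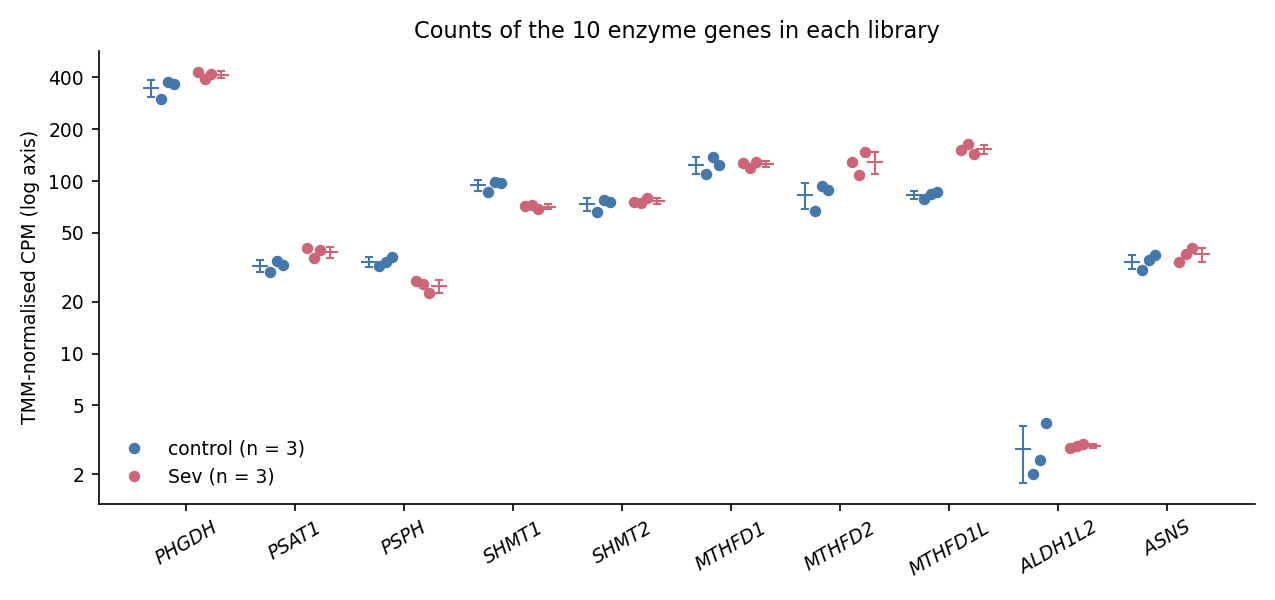
TMM-normalised CPM on a log axis for each of the 10 genes, with 1 point per library (control left, Sev right, 3 each) and the mean with its SD beside the points. MTHFD1L and MTHFD2 lie higher and PSPH and SHMT1 lower in Sev without overlap, and ALDH1L2 lies far below the other genes.

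PHGDH (ENSG00000092621, chromosome 1, 119648411 to 119744226, GRCh38) encodes the dehydrogenase that takes the first step from glycolysis toward serine. It had 299.9, 375 and 364 CPM in the control libraries and 428, 392 and 420.2 CPM in the Sev libraries. In CPM every Sev library was above every control library, by the least between control replicate 2 and Sev replicate 2. In FPKM, which is not TMM-scaled, the groups overlapped, with 34.0 in control replicate 2 and 31.7 in Sev replicate 2. On the log2 scale the difference was 0.26 with a standard error of 0.10, and it did not pass the test (adjusted p = 0.0735). The 95% interval of the change ran from 0.022 to 0.49. With scaling by library size only, edgeR gave a log2 fold change of 0.12 (adjusted p = 0.348).

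PSAT1 (ENSG00000135069, chromosome 9, 78297143 to 78330093), the aminotransferase of the second step, had 29.7, 34.5 and 32.6 CPM in control cells and 41.1, 35.6 and 39.8 CPM after Sev. In CPM the groups again did not overlap, and the gap between the closest libraries was small. In FPKM they overlapped, with 13.1 in control replicate 2 and 12.0 in Sev replicate 2. The difference of 0.27 on the log2 scale, with a standard error of 0.10, also missed the limit (adjusted p = 0.0611). Without Sev replicate 2, its lowest Sev library, the adjusted p-value was 0.0402 and the log2 fold change 0.33. With scaling by library size only, edgeR gave a log2 fold change of 0.13 (adjusted p = 0.352).

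PSPH (ENSG00000146733, chromosome 7, 56011051 to 56051604), the phosphatase that releases serine in the last step, went the other way. The control libraries held 32.1, 33.7 and 36.4 CPM, and the Sev libraries held 26.3, 25.3 and 22.3 CPM. All 3 Sev libraries lay below the lowest control library. The gene was 1.38-fold lower, or −0.47 on the log2 scale with a standard error of 0.10 (adjusted p = 0.00832).

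Within the serine branch PSPH mRNA was lower relative to PHGDH mRNA after Sev, which restates the values of the single genes. The ratio of PSPH to PHGDH, both in FPKM within a library, was 35.6%, 29.998% and 33.3% in control cells and 20.4%, 21.5% and 17.6% after Sev. These ranges did not overlap, and on the log2 scale the mean ratio fell by 0.73. The ratio of PSAT1 to PHGDH was 41.5%, 38.4% and 37.4% in control cells and 40.1%, 37.97% and 39.5% after Sev. Those ranges overlapped, and the mean log2 ratio differed by 0.0041, less than its SD of 0.077 in control cells. These ratios were chosen after the single genes had been seen and carry no test.

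SHMT1 and SHMT2 encode the cytosolic and the mitochondrial serine hydroxymethyltransferase, which split serine into glycine and a folate-bound carbon. SHMT1 (ENSG00000176974, chromosome 17, 18327860 to 18363563) had 86.1, 99.2 and 97.6 CPM in control cells and 71.4, 72.9 and 68.5 CPM after Sev. It was lower in every Sev library, 1.33-fold by the fit, or −0.41 on the log2 scale with a standard error of 0.085 (adjusted p = 0.00626). SHMT2 (ENSG00000182199, chromosome 12, 57229327 to 57234935) had 65.8, 77.6 and 76.0 CPM in control cells and 75.6, 74.3 and 79.9 CPM after Sev. The groups overlapped, and the log2 fold change of 0.067 had a 95% interval from −0.14 to 0.27 (adjusted p = 0.578). Its sign turned to −0.072 with scaling by library size only.

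MTHFD1L (ENSG00000120254, chromosome 6, 150865549 to 151101887) encodes the mitochondrial enzyme that releases formate from formyl-tetrahydrofolate, the exit of the mitochondrial arm. It had 78.4, 83.9 and 87.0 CPM in control cells and 152, 163 and 144 CPM after Sev. The lowest Sev library was far above the highest control library. It was 1.84-fold higher, 0.88 on the log2 scale with a standard error of 0.083 (adjusted p = 0.000258), and between 0.83 and 0.92 when single libraries were left out. By p-value it stood at rank 642 of the 27514 tested features.

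MTHFD2 (ENSG00000065911, chromosome 2, 74198562 to 74217565) encodes the mitochondrial dehydrogenase and cyclohydrolase that acts before MTHFD1L. The control libraries held 67.2, 93.9 and 88.8 CPM, and the Sev libraries held 129.6, 109.1 and 146 CPM. The groups did not overlap, with more spread than in MTHFD1L, the coefficient of variation being 17.02% in control and 14.6% in Sev libraries against 5.25% and 6.27%. The fit gave 1.54-fold, 0.62 on the log2 scale with a standard error of 0.15 (adjusted p = 0.0127). With limma on log2(FPKM + 1) the value was 0.46, called with an expression filter (adjusted p = 0.0447) and not called without it (adjusted p = 0.0915).

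ALDH1L2 (ENSG00000136010, chromosome 12, 105019784 to 105084577), the mitochondrial formyl-tetrahydrofolate dehydrogenase that makes NADPH, was the least abundant of the 10, with 85 to 191 counts per library. It had 2.01, 2.42 and 3.93 CPM in control cells and 2.81, 2.90 and 2.98 CPM after Sev. The Sev values lay inside the control range, and the 95% interval of the log2 fold change of 0.052 ran from −0.55 to 0.65 (adjusted p = 0.889). The value turned with the control library left out, to −0.15 without replicate 1, −0.047 without replicate 2 and 0.38 without replicate 3.

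MTHFD1 (ENSG00000100714, chromosome 14, 64388031 to 64463457) encodes the trifunctional cytosolic enzyme that carries out the same interconversions outside mitochondria. It had 110.3, 137 and 124 CPM in control cells and 127, 119.8 and 129 CPM after Sev. The Sev values lay within the control range. The log2 fold change was 0.016 (95% interval −0.20 to 0.24, adjusted p = 0.905), and it was −0.12 with library size only.

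ASNS (ENSG00000070669, chromosome 7, 97852118 to 97872542), asparagine synthetase, had 30.6, 34.6 and 37.1 CPM in control cells and 34.0, 37.8 and 40.9 CPM after Sev. The groups overlapped. The log2 fold change of 0.14 (95% interval −0.12 to 0.40, adjusted p = 0.344) did not pass the test. It ran from 0.057 without control replicate 1 to 0.21 without Sev replicate 1, and was 0.00046 with library size only. A log2 change of 1, the study's threshold, lies above that interval.

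**Figure D2:**
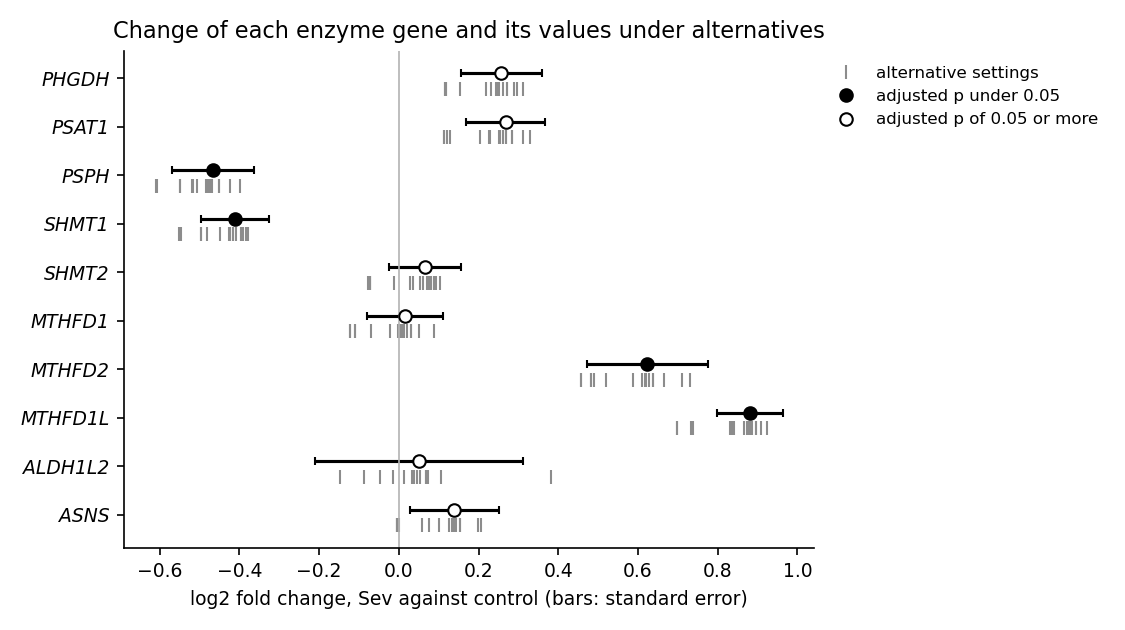
Log2 fold change of each gene, Sev against control, with its standard error (circles, filled where the adjusted p-value is under 0.05) and the values under alternative settings (ticks). MTHFD1L, MTHFD2, PSPH and SHMT1 stay on their side of 0 under every alternative run, whereas ticks of SHMT2, MTHFD1, ALDH1L2 and ASNS fall on both sides.

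The control libraries were not equal for these genes. All 10 had their lowest control value in control replicate 1, the library with the lowest value for 35.5% of all tested features and 41.0% of protein-coding ones. Its part in the results was not tested, but each change can be given without it. The log2 fold change was then 0.83 for MTHFD1L, 0.48 for MTHFD2, −0.52 for PSPH and −0.48 for SHMT1, and each of the 4 was called. Without that library the value was 0.15 for PHGDH and 0.20 for PSAT1, neither called. It was −0.013 for SHMT2, −0.070 for MTHFD1, −0.15 for ALDH1L2 and 0.057 for ASNS, none called either. In the Sev group, 5 of the 10 were lowest in replicate 2, 3 in replicate 3 and 2 in replicate 1.

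A ratio of 2 genes within a library does not depend on how libraries are scaled, so the mitochondrial and the cytosolic arm were compared in this way. The ratio of SHMT2 to SHMT1, in FPKM, was 1.22, 1.24 and 1.24 in control cells and 1.68, 1.62 and 1.85 after Sev, which is 1.39-fold higher. MTHFD2 to MTHFD1 was 1.54, 1.73 and 1.80 in control cells and 2.57, 2.30 and 2.87 after Sev, 1.52-fold higher. MTHFD1L to MTHFD1 was 1.73, 1.49 and 1.70 in control cells and 2.91, 3.32 and 2.72 after Sev, 1.82-fold higher. All 3 ratios were higher in each Sev library than in each control library, but those to MTHFD1 share a denominator and are not separate observations. Of all tested features, taken singly, 56.5% did not overlap between the groups, and the share over gene pairs was not worked out. The exact two-sided permutation test gave p = 0.1 for each ratio, also after adjustment over the 3. This is the smallest p-value that 3 libraries against 3 allow. The numerator and denominator contributed differently, as SHMT1 was lower while SHMT2 overlapped, and MTHFD2 and MTHFD1L were higher while MTHFD1 overlapped.

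**Figure D3:**
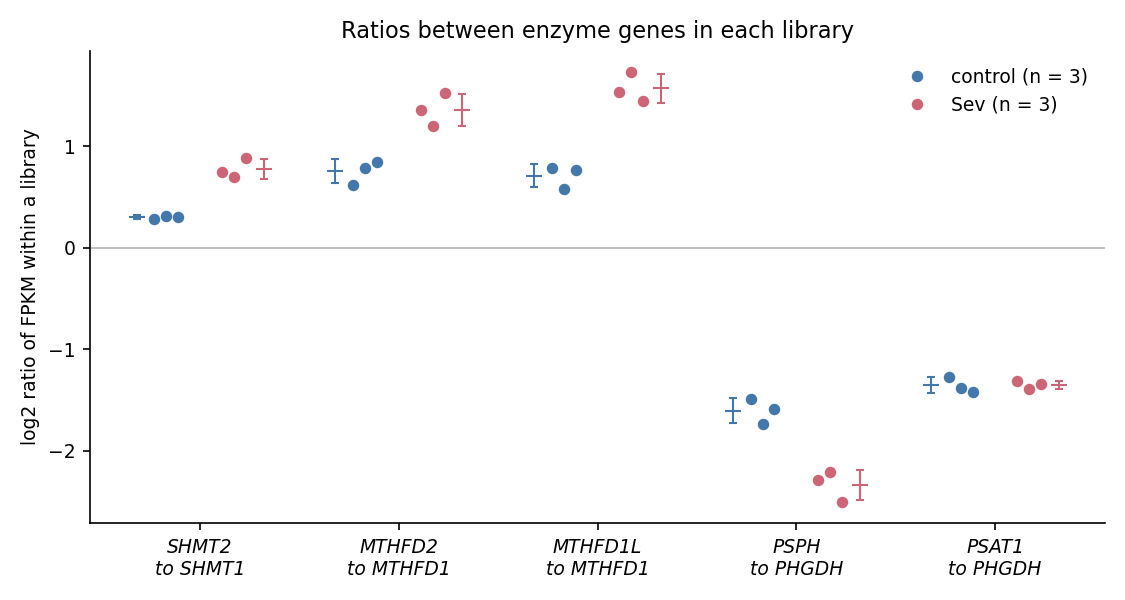
Log2 ratio of FPKM between pairs of enzyme genes in each library (points; 3 control and 3 Sev), with mean and SD beside them and a line at equal levels. The 3 mitochondrial to cytosolic ratios are higher and PSPH to PHGDH is lower in every Sev library, while PSAT1 to PHGDH overlaps.

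In level per length, PHGDH was first of the 10 in both groups, with 32.0 ± 3.14 FPKM (SD, n = 3) in control cells and 34.6 ± 2.58 FPKM (SD, n = 3) after Sev, 26.0% and 25.9% of the summed FPKM of the 10. In control cells MTHFD2, MTHFD1L, SHMT2 and PSAT1 followed between 14.7 and 12.5 FPKM, each overlapping the next in its range. SHMT1 (11.0 FPKM) and PSPH (10.5 FPKM) overlapped each other and lay below PSAT1. MTHFD1 (8.65 FPKM), ASNS (5.92 FPKM) and ALDH1L2 (0.246 FPKM) came last, each apart from its neighbours. After Sev, MTHFD1L with 23.6 FPKM and MTHFD2 with 20.6 FPKM overlapped each other and stood clear of PSAT1 (13.6 FPKM). PSPH fell to 6.85 FPKM, where its range overlapped that of ASNS (5.91 FPKM).

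This order depended on the length used. The deposited FPKM matched division by the merged exons of all transcripts of a gene, within 5% for 88.8% of 11051 abundant genes after scaling by a common factor. For PHGDH the merged exons span 9217 bases and the principal coding transcript (GENCODE 29) 2585 bases. For MTHFD1 they span 9377 and 3136 bases, and for PSAT1 2188 bases both ways. In CPM per kilobase of the principal transcript, MTHFD1 moved from the eighth to rank 2 in control cells (39.5 ± 4.25), next to SHMT1 (38.2 ± 2.90), and PSAT1 moved to rank 8 (14.7 ± 1.08). PHGDH at 134 ± 15.6 and ALDH1L2 at 0.369 ± 0.134 kept the first and the last place. MTHFD1L moved from rank 5 in control cells to rank 2 after Sev on this scale. There it had 42.4 ± 2.66 next to MTHFD1 with 39.9 ± 1.54, so these places are not clearly apart.

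**Figure D4:**
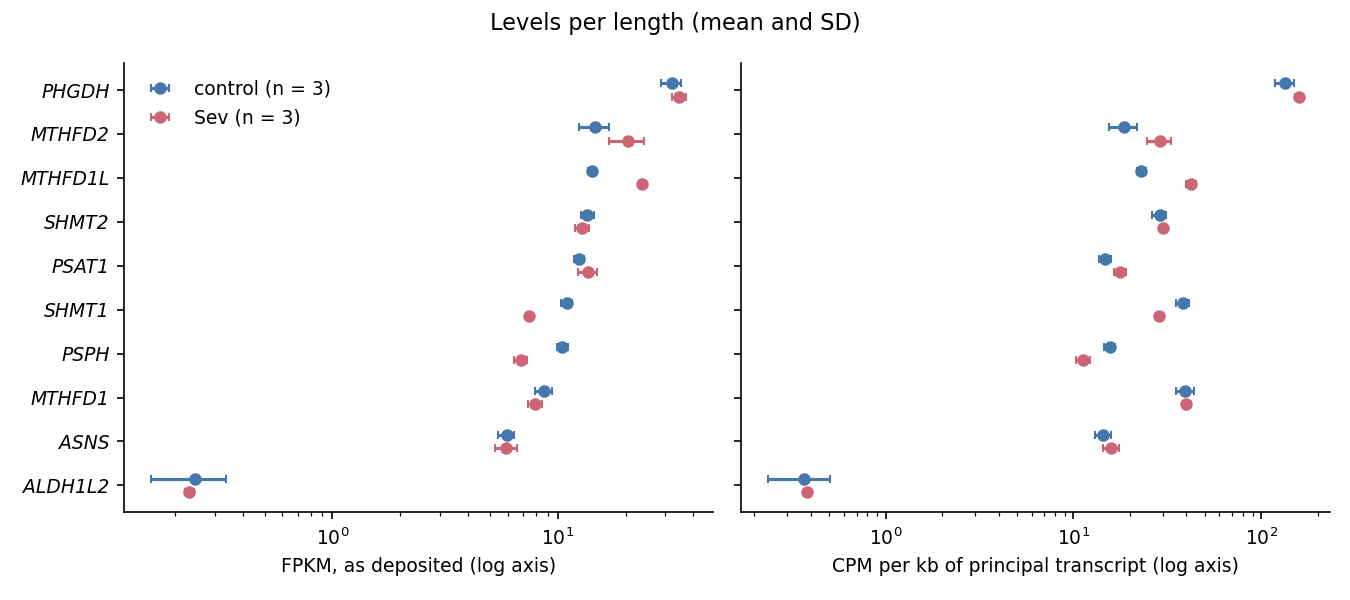
Mean level with SD (n = 3) of the 10 genes on log axes, as deposited FPKM (left) and as CPM per kilobase of the principal transcript (right), in the order of the control FPKM. PHGDH is highest and ALDH1L2 lowest on both scales, while MTHFD1 lies eighth on the left and near the top on the right.

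Some reads could belong to other genes, since how the counting treated overlaps and strand is not given in the sources used here. The pseudogene SHMT1P1 held 3.39% to 4.26% of the summed counts of SHMT1 and this copy, with 145 to 169 counts in control and 96 to 118 in Sev libraries. Named copies of PSAT1, PSPH, MTHFD1, MTHFD2 and ASNS held at most 0.994%. SHMT1 shares 196 exon bases with SMCR8 on the other strand, which had 3142 to 3909 counts in control and 5053 to 5700 in Sev libraries, a direction opposite to that of SHMT1. With all SMCR8 counts added to SHMT1, the log2 ratio of the means turned from a negative value to 0.25, and how many of its reads fall in the shared bases cannot be read from gene counts. MTHFD2 shares 1324 exon bases with SLC4A5 on the other strand, which had at most 392 counts, and adding these gave a log2 change of 0.61. ASNS shares 1985 exon bases on its own strand with the transcript ENSG00000284707, which had 226 to 387 counts in control and 161 to 235 in Sev libraries. With these counts added to ASNS, the log2 ratio of the means was 0.054 in place of 0.14. ALDH1L2 shares 145 exon bases with NOPCHAP1 on the other strand, which had 629 to 1525 counts against 85 to 191 for ALDH1L2. MTHFD1 shares 178 with ZBTB25 on the other strand, which had 309 to 916 counts.

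The pattern of MTHFD1L over the 6 libraries was most like that of WIZ, PHC2 and PMAIP1 among 16009 genes with a symbol and at least 1 CPM. The root mean square difference of their centred log2 CPM from that of MTHFD1L was 0.026, 0.027 and 0.037. WIZ encodes a zinc finger protein, PHC2 a polycomb group protein and PMAIP1 the proapoptotic protein NOXA. Their log2 fold changes were 0.91, 0.85 and 0.90.

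Around these enzymes, 106 genes of 7 related lists were described in the same fit. Of the 101 tested, 34 were higher, 14 were lower and 53 did not pass the test. Of all tested features, 22.1% were higher and 21.5% lower, 43.7% together, and these shares are the background for each list below. The share called in either direction was near that background, while a larger share was higher and a smaller share lower. The ATF4 list alone gave 13 of the 34 higher. Without Sev replicate 1, 22 genes of the 7 lists were higher and 9 lower. With library size only, 19 were higher and 23 lower, so the split between the directions depended on the scaling. For folate handling this setting gave 2 higher and 3 lower, and for the ATF4 list 11 higher and 3 lower. The median log2 fold change was 0.10 for the 10 enzyme genes and −0.0056 for all tested features. With library size only, these were −0.036 and −0.147.

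Of 12 tested folate handling genes, 5 were higher and 1 was lower, with a median log2 fold change of 0.18. The lower gene is among those not reported here. Leaving out control replicate 1 or 3, or Sev replicate 1 or 3, left 3 higher, and 2 were lower without control replicate 1. SLC25A32, the carrier that brings folate into mitochondria, was higher by 0.66 (adjusted p = 0.00481), from 19.1 ± 2.23 to 30.2 ± 3.40 CPM. GGH, which removes glutamates from folate, was higher by 0.40 (adjusted p = 0.0051). MTHFD2L, the paralog of MTHFD2, named after its values were seen, was also higher (0.43, adjusted p = 0.0102), but was not called with library size only or in the 3 FPKM fits. ALDH1L1, the cytosolic counterpart of ALDH1L2, had at most 5 counts in a library and was not tested.

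The 7 genes of glycine cleavage, which in mitochondria also charges folate with a carbon, gave 1 higher and 3 lower and a median of 0.029, with 0 higher and 3 lower by library size only. Without control replicate 1, and without Sev replicate 1, 1 was lower, and leaving out any single library left 0 higher. LIAS, the lipoate synthase whose product the cleavage system carries, was 2.57-fold lower, from 9.88 ± 0.989 to 3.84 ± 0.840 CPM (log2 fold change −1.36, adjusted p = 0.00112). LIPT1, which transfers lipoate, was lower by −1.09 (adjusted p = 0.0225), from 1.16 to 0.544 CPM. It had few reads, at most 58 counts in a control and 31 in a Sev library. GCSH, the carrier protein, was higher by 0.38 (adjusted p = 0.0496). The call of GCSH was lost in 14 of 16 alternatives, each left-out library among them, and that of LIPT1 in 7 of 16. The decarboxylase GLDC had a log2 fold change of 0.15 (adjusted p = 0.502).

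In the methionine cycle and transsulfuration, 2 of 12 tested genes were higher and 4 were lower, with a median of −0.14, and 1 was higher and 5 lower by library size only. With any single library other than control replicate 2 left out, 1 was higher. MTR, the synthase that takes the folate-bound methyl group, fell from 88.3 ± 13.3 to 54.6 ± 5.41 CPM (log2 fold change −0.69, adjusted p = 0.0042). MAT2B, the regulatory subunit of methionine adenosyltransferase, was lower by −0.76 (adjusted p = 0.000793). GNMT, which uses the methyl donor on glycine, was higher by 0.87 (adjusted p = 0.00872), from 2.83 to 5.16 CPM, and AHCY, which clears the by-product of methylation, was higher by 0.34 (adjusted p = 0.0376), a call lost in 11 of 16 alternatives.

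Purine and thymidylate synthesis, where formyl and methylene folate are used, gave 5 higher and 0 lower of 14, with a median of 0.24. This stood beside 22.1% higher and 21.5% lower of all tested features. At an unadjusted p-value under 0.05 edgeR had 0 lower as well, and DESeq2 also called 0 lower. With library size only, 2 were higher and 2 lower. The number higher was 2 without control replicate 1 or Sev replicate 1, and 3 without control replicate 3 or Sev replicate 3. PRPS1, which makes the ribose donor, was higher by 0.51 (adjusted p = 0.00466), and PPAT, the first committed enzyme, by 0.52 (adjusted p = 0.00811). ATIC and GART, enzymes that use formyl folate, had log2 fold changes of −0.10 (adjusted p = 0.414) and −0.18 (adjusted p = 0.102).

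Of 16 tested glutamine, aspartate and proline enzymes, 3 were higher and 2 were lower, and the median was −0.025. With library size only, 1 was higher and 4 were lower, and 4 were also lower without Sev replicate 2. GLUD1, glutamate dehydrogenase, was higher by 0.35 (adjusted p = 0.0103), but was not called with library size only or in the 3 FPKM fits. GPT, an alanine aminotransferase, was 2.01-fold lower (log2 fold change −1.01, adjusted p = 0.00192).

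Among 21 genes of serine and glycine transport and use, 5 were higher and 2 were lower, with a median of 0.070, against 2 higher and 3 lower by library size only. Leaving out control replicate 1 or 3, or Sev replicate 1, left 3 higher and 1 lower, and leaving out Sev replicate 2 or 3 left 1 lower. SFXN1, which brings serine into mitochondria, was higher by 0.51 (adjusted p = 0.00595), from 114 ± 7.91 to 163 ± 18.7 CPM. Its relative SFXN3 was lower by −0.25 (adjusted p = 0.0433), a call lost in 9 of 16 alternatives, both DESeq2 settings and 5 of 6 left-out libraries among them. PTDSS1, which uses serine for phosphatidylserine, was higher by 0.54 (adjusted p = 0.0034). SPTLC2, a subunit of the enzyme that uses serine for sphingolipids, was lower by −0.54 (adjusted p = 0.00283).

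ATF4 and other textbook targets, a list of 20 without the enzymes above, gave 13 higher and 2 lower of 19 tested. This stood beside 22.1% higher and 21.5% lower of all tested features. The median was 0.57, and 11 to 13 were higher when single libraries were left out. The list counts ATF4, which the study picked from this sequencing, and CHAC1, which it measured as protein. ATF4 mRNA had 187, 172 and 177 CPM in control cells and 372, 410.2 and 349 CPM after Sev (log2 fold change 1.08, standard error 0.086, adjusted p = 0.000147). CHAC1, a glutathione-degrading enzyme, had 7.46, 7.71 and 10.3 CPM in control cells and 34.4, 30.4 and 35.1 CPM after Sev (1.97, adjusted p = 0.00013). Both were higher in every Sev library without overlap. The lower genes were DDIT4, an mTORC1 inhibitor, with a log2 fold change of −3.06 (adjusted p = 2.27e-05), and VLDLR, a lipoprotein receptor, with −0.51 (adjusted p = 0.018). The call of VLDLR was lost without control replicate 3 and without Sev replicate 1. ADM2 had 0 counts in each control library and 49 to 105 in Sev libraries, at least 27.9-fold higher against a floor of 3 counts per library, and at that bound the median of the list was again 0.57. Beside ATF4 and CHAC1, of the enzymes named above as textbook ATF4 targets, MTHFD2 was called higher, and ASNS, PHGDH, PSAT1 and SHMT2 were not called. Of the remaining members, MTHFD1L was called higher, PSPH and SHMT1 were called lower, and MTHFD1 and ALDH1L2 were not called.

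**Figure D5:**
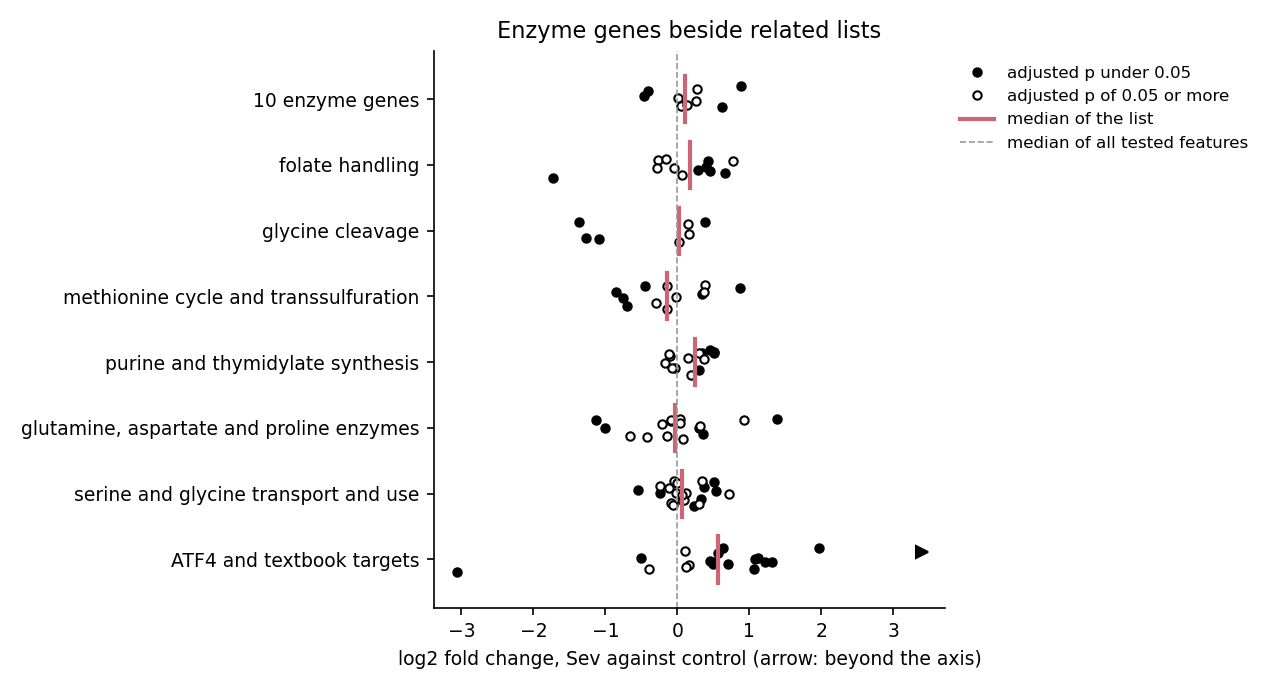
Log2 fold change, Sev against control, of every tested gene in the 10 enzyme genes and the 7 related lists (points, filled where the adjusted p-value is under 0.05), with each list's median (red) and that of all tested features (dashed). The arrow is ADM2, beyond the axis, and the ATF4 list has the median farthest to the right, 0.57 against 0.10 for the enzyme genes.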

How the data were processed

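RNA of 3 control and 3 Sev-exposed samples of U251 cells was depleted of rRNA and sequenced as strand-specific libraries. The labels do not say that replicates were separate cultures, and the study's general mention of independent experiments does not name the sequencing, so p-values measure the spread between these samples, which may be technical. The authors deposited raw counts per gene, with FPKM beside them for each feature. The submitters' processing notes name bcl2fastq 2.19, featureCounts and genome build hg18. The aligner and the annotation are not given in the sources used here. The tables hold no positions, so positions come from GENCODE 29 (GRCh38) through the Ensembl identifiers, and 60295 of 61496 features have an entry in the symbol table.

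Counts were filtered with filterByExpr, given TMM factors, and tested on the whole table by the quasi-likelihood method (glmQLFit, then glmQLFTest) of edgeR 4.0.16 in R 4.3.3, 3 libraries against 3, with Benjamini-Hochberg adjustment. The standard error is the log2 fold change over the square root of the F statistic, and intervals use the test's degrees of freedom. TMM factors were 1.03 to 1.08 in control and 0.918 to 0.988 in Sev libraries. Library totals limit the precision for genes with few counts, and 3 replicates limit it for the rest. The scripts were tested on simulated data.

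The members and the lists were chosen with earlier results of these data known. All 10 enzyme genes are named, with the 2 smallest adjusted p-values in each direction of each related list, ATF4 and CHAC1, and the 3 genes most like the member with the smallest p-value. Some genes that this rule names are not reported here. Outside that rule, chosen after their values were seen, are MTHFD2L, ALDH1L1, GLDC, ATIC, GART and ADM2. Alternatives were DESeq2 1.42.0, other scalings and filters, limma 3.58.1 on log2(FPKM + 1) and log2(FPKM + 0.1), the replicate number as a block and each library left out. A fit of protein-coding genes and the principal transcript lengths were added after seeing the data. Replicates of a group differed beyond sampling noise in 49.0% to 67.4% of abundant genes.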

Additional observations from a re-analysis of the deposited data

How the results depend on the processing

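The calls of MTHFD1L, PSPH and SHMT1 held under all 16 alternatives, and that of MTHFD2 under all but limma on log2(FPKM + 1) without a filter, where 1 gene was called higher. PHGDH, SHMT2, MTHFD1, ALDH1L2 and ASNS were not called under any alternative run. PSAT1 was called without Sev replicate 2 only. Leaving out single libraries, 2 to 3 members were higher, 2 were lower, and the median of the 10 lay between 0.022 and 0.23, the highest without control replicate 3. The related lists then gave 22 to 29 higher and 9 to 14 lower genes, the fewest without Sev replicate 1.

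Some signs turned. With library size only, which moved the median of all tested features from −0.0056 to −0.147, SHMT2 was −0.072, MTHFD1 −0.12, ALDH1L2 −0.088 and the median of the 10 −0.036, with 19 related genes higher and 23 lower. The FPKM are not TMM-scaled either. On log2(FPKM + 1) SHMT2 was −0.072, MTHFD1 −0.11, ASNS −0.0043 and the median −0.0043, with 18 related genes higher. On log2(FPKM + 0.1) SHMT2 was −0.077, MTHFD1 −0.12, ASNS −0.0052 and the median −0.0052, with 18 higher and 22 lower. Without the FPKM filter SHMT2 was −0.072, MTHFD1 −0.11, ALDH1L2 −0.014, ASNS −0.0043 and the median −0.0092, with 15 higher. With single libraries left out, SHMT2 ran from −0.013 to 0.10, MTHFD1 from −0.070 to 0.087 and ALDH1L2 from −0.15 to 0.38, each lowest without control replicate 1. ALDH1L2 was −0.047 without control replicate 2, and MTHFD1 was −0.0021 without Sev replicate 3 and −0.022 with protein-coding genes only. None of these reversed values belongs to a called gene. ALDH1L2 gave no value with the FPKM filter.

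The numbers 1 to 3 of the labels are not said to mark a shared culture, and the deviations of same-numbered libraries correlated by −0.0072, 0.0035 and 0.027. With the replicate block, 2 members were again higher and 2 lower, of 10249 features called in place of 12014, with 26 related genes higher and 12 lower, and among the named ones the calls of GCSH, AHCY and SFXN3 were lost. In this balanced design the block cannot move the differences in log2 ratio (0.61 for MTHFD2 to MTHFD1). ALDH1L2, with 85 to 191 counts per library, had the least depth of the 10.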
